A study of Mus musculus with 36 samples.

Results

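The potassium channel genes were taken as the rows of both deposited tables whose name starts with Kcn, a subfamily letter or letters and a number, and whose mean level over the 36 libraries was at least 1. There were 80 such rows among 24883, and 97 rows matched the name before the level was applied. Levels are FPKM (fragments per transcript length and per mapped fragment of the library) rescaled to a sum of 1000000 in each library, so they are given per transcript length. RNA came from adult C57BL/6J mice, from tissue dissected to enrich the suprachiasmatic nucleus (SCN), the brain's central circadian clock. One group of mice had eaten normal chow for 10 weeks and the other a high-fat diet for 10 weeks. Each diet was sampled at zeitgeber time (ZT) 0, 4, 8, 12, 16 and 20, with 3 libraries for each of the 12 groups. The sources used here do not say whether replicates are different mice, so p-values measure the spread between libraries, which may be technical.

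Potassium channels let potassium leave the cell and so pull the membrane back towards rest after each action potential. SCN neurons fire fast by day and slowly by night, and changes in potassium conductance are known to be part of that rhythm. Voltage-gated channels shape the spike and its frequency, calcium-activated channels shape the afterhyperpolarization, inward rectifiers and tandem-pore channels set the resting potential, and glial inward rectifiers clear potassium from the extracellular space.

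Markers of the SCN and of tissue around it were present in the libraries. All 9 SCN markers examined were above 0 in every library, and Vip, a peptide of the SCN core, ranged from 6.30 to 135. The 10 markers of other hypothalamus were also above 0 in every library. Among them Oxt had a median of 2470 and Hcrt ranged from 0.979 to 683. Levels of Ppp1r1b, a striatal signalling protein, were 845 and 615 in 2 libraries (high-fat diet ZT 16 replicate 3 and normal chow ZT 12 replicate 3), against a median of 48.6. Alb, the transcript of serum albumin, was highest in 3 libraries, with 1890 in normal chow ZT 0 replicate 1. All 6 liver markers were above 0 in every library too. A value above 0 therefore does not by itself show which tissue was dissected. Relative sequencing depth, estimated from the smallest steps between values, differed 1.97-fold between the shallowest and deepest libraries, and no absolute number of reads could be derived. The clock gene Dbp had a fitted 2.29-fold rhythm over both diets peaking at ZT 9.54 (limma, adjusted p = 3.08e-11).

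No potassium channel member was at 0 in any library. Kcnj10, the inward rectifier of astrocytes, had the highest level, with a lowest library of 181, a median of 280 and a highest library of 402. Kcnab2, a cytoplasmic beta subunit of voltage-gated channels, followed with 113, 131 and 232. Kcnc1, a fast delayed rectifier that permits high firing rates, had 75.0, 94.0 and 116. The range of Kcnab2 overlapped those of Kcnj10 and Kcnc1, although no other member came near Kcnj10 at its median.

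Accessory subunits and inward rectifiers had the largest shares of the channel RNA. The 9 accessory subunits summed to 22.8% of the members' total level, the 13 inward rectifiers to 22.2% and the 4 Kv3 genes to 10.5%. In the Kv1 group of low-voltage channels Kcna6 was highest at 65.5 ± 7.61 (mean ± SD, n = 36), and in the Kv4 group of A-type channels Kcnd2 had 55.4 ± 8.17 and Kcnd1 6.05 ± 0.796. Kcnk1, a weakly conducting tandem-pore channel, had 58.3 ± 6.48. The ether-a-go-go group was led by Kcnh2 at 43.9 ± 4.52, the sodium-activated group by Kcnt1 at 38.4 ± 8.11, and the Kv2 and silent-subunit group by Kcnf1 at 26.0 ± 4.30. Among calcium-activated channels the large-conductance (BK) pore gene Kcnma1 had 18.8 ± 6.30, its neuronal beta subunit Kcnmb4 had 33.1 ± 5.16, and the small-conductance gene Kcnn2 had 17.2 ± 3.06. Kcnd3os and Kcnn4 lay just above the minimum level at 1.04 and 1.07, and Kcnk7 and Kcnq1ot1 just under it at 0.855 and 0.663. Of the 80 rows 3 are noncoding antisense transcripts, led by Kcnmb4os1 at 19.1 ± 3.50, and the sources used here do not say whether counting used strand, so their reads cannot be told apart from those of an overlapping gene.

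**Figure D1:**
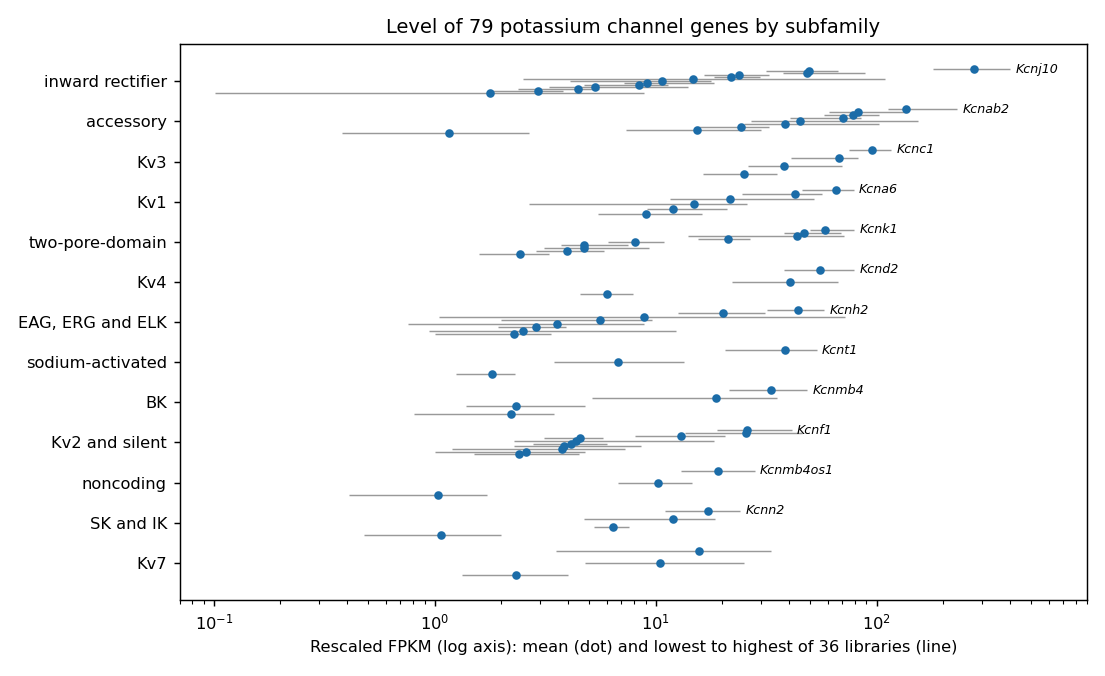
Mean level of 79 of the 80 potassium channel genes (dot) with its lowest and highest of 36 libraries (line), by subfamily, in rescaled FPKM on a log axis; the highest member drawn is named in all subfamilies but Kv7. Kcnj10 has the highest mean at 277, and the widest lines belong to Kcnh3, Kcnj4 and Kcnj13.

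Within groups the members varied more than other rows. The median within-group SD on the log2(value + 1) scale was 0.25 over the 80 members and 0.19 over all 15173 rows tested. This spread limits what the 3 libraries of a group can show for a channel gene.

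Over both diets, 3 of 80 members passed the test of a 24 h cosine curve (limma, Benjamini-Hochberg adjusted p under 0.05 over all rows tested), a share of 3.75% beside 2.18% of all rows. They were Kcns3, Kcnn2 and Kcnj8, from 3 subfamilies, and their fitted peak-to-trough changes lay between 1.31-fold and 1.36-fold. The time points set side by side below for each gene lie near its fitted trough and peak in the same libraries. Their separation describes the call and adds no support to it. At an unadjusted p under 0.05 there were 9 of 80 members, 11.2%, beside 13.1% of all rows. In bulk tissue, fewer cells of a type and less RNA per cell cannot be told apart. Of 46 other excitability genes (sodium, calcium and cyclic nucleotide-gated pacemaker channels, the sodium leak complex, the sodium pump, chloride transporters and channel partners) none passed this test and 1 had an unadjusted p under 0.05, whereas 8 of 15 clock genes passed.

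Kcns3 encodes an electrically silent subunit that assembles with Kv2 channels and slows their gating. It lies on chromosome 12 (GRCm38, chr12:11090202-11151056, minus strand). At ZT 0 its lowest, median and highest values over the 6 libraries of both diets were 2.81, 3.35 and 3.89, and at ZT 12 they were 4.27, 4.93 and 6.00. The 6 libraries of ZT 12 all lay above the 6 of ZT 0, with intermediate values at ZT 4 (2.89 to 4.58) and ZT 8 (4.14 to 5.01). Afterwards the medians were 4.11 at ZT 16 and 4.41 at ZT 20, where normal chow replicate 3 stood low at 2.79. The fitted curve rose by 0.40 ± 0.076 (SE) from trough to peak on the log2(value + 1) scale, 1.32-fold, peaking at ZT 12.3 (limma, adjusted p = 0.00507). Fitted alone, normal chow gave 1.26-fold peaking at ZT 12.8 (limma, adjusted p = 0.228) and high-fat diet 1.39-fold peaking at ZT 12.1 (limma, adjusted p = 0.350).

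Kcnn2 encodes a small-conductance calcium-activated channel that carries part of the afterhyperpolarization, and lies on chromosome 18. Its lowest, median and highest values over both diets were 11.1, 14.7 and 15.8 at ZT 4 and 16.3, 20.6 and 24.05 at ZT 12. No ZT 4 library reached the lowest ZT 12 library. At ZT 16 the 6 libraries spread from 15.6 to 22.9 and at ZT 0 from 11.3 to 18.1, so these neighbouring hours overlapped with the rest. The fitted rise from trough to peak was 0.45 ± 0.092 on the log2(value + 1) scale, 1.36-fold, peaking at ZT 14.03 (limma, adjusted p = 0.0106). Under normal chow alone it was 1.49-fold with a peak at ZT 13.8 and just missed the threshold (limma, adjusted p = 0.0528), and under high-fat diet it was 1.25-fold peaking at ZT 14.4 (limma, adjusted p = 0.589). The fitted peak of Kcnn2 lay early in the night in each diet, but neither diet passed when fitted alone. When any difference among the 6 time points was tested in place of a cosine, its adjusted p over both diets was 0.0742 (limma).

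Kcnj8 encodes the pore of the ATP-sensitive potassium channel of vascular mural cells, and lies on chromosome 6 (GRCm38, chr6:142564837-142571614, minus strand). Over both diets its lowest, median and highest values were 3.07, 3.36 and 3.79 at ZT 8 and 1.82, 2.46 and 2.80 at ZT 20, and the libraries of these time points did not overlap. The fitted curve peaked earlier in the day than those of Kcns3 and Kcnn2, at ZT 5.88, with a rise from trough to peak of 0.39 ± 0.081 on the log2(value + 1) scale, 1.31-fold (limma, adjusted p = 0.0130). The highest library of all, at 3.79, was a high-fat diet library of ZT 0, where the 3 high-fat diet values (3.25, 3.79 and 3.68) stood above the 3 of normal chow (2.96, 2.73 and 2.45). At ZT 16 the order was the other way round, with 2.25, 1.92 and 2.12 under high-fat diet and 3.42, 2.42 and 2.73 under normal chow. The fitted peaks were ZT 4.27 under high-fat diet and ZT 7.30 under normal chow, and the test of that difference gave an adjusted p of 0.443 (limma). With scores of oligodendrocyte and of striatal, cortical and thalamic markers as covariates the adjusted p over both diets was 0.0577, and 0.0768 when any difference among the 6 time points was tested (limma).

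**Figure D2:**
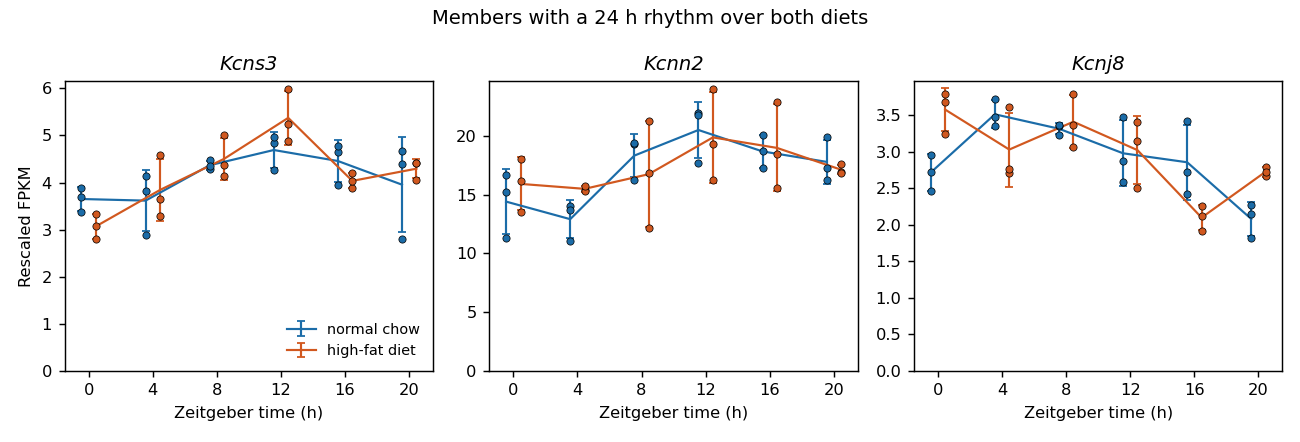
Rescaled FPKM of Kcns3, Kcnn2 and Kcnj8 by zeitgeber time in hours, with each library as a point, the group mean as a line and its SD as a bar (n = 3 libraries per diet and time point). Kcns3 and Kcnn2 are highest around ZT 12 in both diets, and Kcnj8 is lowest at ZT 16 or 20.

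Kcnj8 was also the 1 member of 80 that passed the comparison of day (ZT 4 and 8) with night (ZT 16 and 20), a share of 1.25% beside 1.79% of all rows. Its 12 day libraries had a lowest value of 2.71, a median of 3.36 and a highest of 3.79. The 12 night libraries had 1.82, 2.34 and 3.42. Of the night libraries 8 lay below every day library, and the others overlapped. Day exceeded night by 0.33 ± 0.057 on the log2(value + 1) scale, 1.26-fold (limma, adjusted p = 9.74e-04), with 0.36 ± 0.081 in the chow libraries and 0.31 ± 0.081 in those of high-fat diet. The list of 9 endothelial and mural markers had 0 members that passed the same test (limma; 5 higher by day, 4 by night). Its summed level had medians of 158 and 171 at ZT 4 and 8 and of 178 and 155 at ZT 16 and 20. At ZT 0 the sums were 139, 182 and 147 under normal chow and 161, 184 and 431 under high-fat diet. At ZT 16 they were 202, 161 and 189 under normal chow and 158, 168 and 189 under high-fat diet. The diets overlapped at both hours. No fit had the score of this list as a covariate, and the part of vessel content in the values of Kcnj8 was not tested. When the cosine curve was tested over both diets, 1 of these 9 markers was called (limma). Within single diets 6 of the 9 had an unadjusted p under 0.05 for normal chow and 1 for high-fat diet (limma). Those shares were 18.2% and 8.64% for all rows. The day-night result alone therefore does not show that the vascular markers were constant over the day. Of the 9 markers the smooth muscle and pericyte genes Acta2, Myh11, Tagln and Pdgfrb had day-minus-night differences of 0.38, 0.18, 0.16 and 0.12 (limma, adjusted p from 0.539 to 0.869). Rgs5, also a pericyte gene, had -0.03 (limma, adjusted p = 0.956). Of 7 oligodendrocyte markers 6 were higher by day, and 2 passed, Opalin with 0.75 and Cnp with 0.29 (limma, adjusted p = 2.4e-05 and 0.0206). Over the 36 libraries Kcnj8 had r = 0.35 and rho = 0.34 with the mean log2(value + 1) of the oligodendrocyte markers (adjusted permutation p = 0.131 and 0.141), 0.27 without the 2 farthest libraries and 0.22 and 0.48 within normal chow and high-fat diet. With scores of oligodendrocyte and of striatal, cortical and thalamic markers as covariates the day-night difference of Kcnj8 was 0.305 (limma, adjusted p = 0.0122). Abcc9, the sulphonylurea receptor that pairs with the Kcnj8 pore in mural cells, had a day-minus-night difference of 0.08 (limma, adjusted p = 0.775).

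Across all 80 members the day-minus-night differences had a median of -0.06 on the log2(value + 1) scale, and the median over all rows was 0.003. Of the members 32 were higher by day, beside 51.4% of all rows, and 48 were higher by night. Within normal chow most members were higher by night, whereas within high-fat diet most were higher by day. The day-night shares of all rows within each diet are not given, so this split is a description. Over all rows, high-fat diet was the higher in 63.9% and 70.6% at ZT 4 and 8. At ZT 16 and 20 it was the higher in 44.6% and 35.4%. All rows thus shifted between the diets in the same direction, and the split is not particular to the members. At an unadjusted p under 0.05 there were 9 members, 11.2%, beside 13.2% of all rows. Of these Kcnj8, Kcnip4 and Kcnj9 were higher by day. The others were higher by night: Kcnn2 (-0.20), Kcnh1 (-0.23), Kcna5 (-0.22), Kcnv1 (-0.38), Kcng2 (-0.15) and Kcnj16 (-0.18), with adjusted p from 0.278 to 0.365 (limma). Kcnip4, a calcium-sensing subunit of A-type channels, had 0.21 ± 0.086 (limma, adjusted p = 0.269), with -0.03 in the chow libraries and 0.45 in those of high-fat diet. Kcnj9, a G protein-gated inward rectifier, had 0.21 ± 0.086 (limma, adjusted p = 0.275), with 0.12 in the chow libraries and 0.29 in those of high-fat diet. The values of these genes over both diets, both towards day, did not pass. They were 0.14 for Kcnip4 without high-fat diet ZT 8 replicate 2 and 0.13 for Kcnj9 without normal chow ZT 8 replicate 2.

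Of the listed channels studied in SCN firing, Kcnn2 passed the rhythm test over both diets, and the others described here did not. For Kcnma1, the BK pore gene, the median of 6 libraries was 12.6 at ZT 4, 19.9 at ZT 8, 18.4 at ZT 12 and 22.4 at both ZT 16 and ZT 20, but single time points spread from 5.76 to 20.6 (ZT 4) and from 5.15 to 25.8 (ZT 20). Its fitted peak was at ZT 14.4 with a peak-to-trough value of 0.49 ± 0.24 (limma, adjusted p = 0.529). The libraries of each hour therefore overlapped with those of every other hour for this gene. Kcnc1 and Kcnc2, the fast delayed rectifiers, had 0.14 ± 0.081 and 0.21 ± 0.12 with fitted peaks at ZT 7.68 and ZT 8.70 (limma, adjusted p = 0.646 and 0.622), and Kcnc2 had 0.12 without normal chow ZT 8 replicate 2. Kcnd1 and Kcnd2, the A-type channels, had 0.06 ± 0.081 and 0.18 ± 0.096 (limma, adjusted p = 0.891 and 0.595).

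Further channels of this list did not pass either, with values that ranged widely. Kcnk1 had a fitted peak at ZT 12.8 and a peak-to-trough value of 0.21 ± 0.063 (limma, adjusted p = 0.160), and Kcna4 one at ZT 13.3 and 0.37 ± 0.12 (limma, adjusted p = 0.248). Kcna1 and Kcna2, the low-voltage channels of axons, had adjusted p-values of 0.654 and 0.867 (limma). Kcnq3, a subunit of the M-current that restrains repetitive firing, had 0.68 ± 0.28 (limma, adjusted p = 0.415). The tandem-pore leak channels Kcnk2, Kcnk3 and Kcnk9 had 0.18, 0.02 and 0.22, the last with an SE of 0.24. Kcnj10, Kcnj3 and Kcnmb4 had 0.24 ± 0.11, 0.07 ± 0.10 and 0.14 ± 0.10 (limma, adjusted p = 0.497, 0.905 and 0.714). A p that misses the threshold does not show that these genes were constant over the day.

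Under normal chow alone, 0 of 78 members passed (limma), beside 0.845% of all rows, and 20 of 78 had an unadjusted p under 0.05, 25.6% beside 18.2% of all rows. Kcnd3os and Kcnn4 were under the minimum level in normal chow and were not tested there. Of these 20 members 13 had a fitted peak between ZT 12 and 18, 65.0% beside 42.4% of all rows with such a p. The smallest p after that of Kcnn2 belonged to Kcnj5, a G protein-gated inward rectifier, at 1.39-fold peaking at ZT 18.5 (limma, adjusted p = 0.0932), and then to Kcnj8 at 1.36-fold (limma, adjusted p = 0.0982). The largest fitted values among the 78 members were 2.12-fold for Kcna3, a delayed rectifier, at ZT 17.3, 2.09-fold for Kcnj13, an inward rectifier of transporting epithelia, at ZT 12.3 and 1.95-fold for Kcnq3 at ZT 16.3.

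Under high-fat diet alone, 0 of 80 members passed (limma), beside 0.0728% of all rows, and 8 of 80 had an unadjusted p under 0.05, 10% beside 8.64% of all rows. Of these 8 members 3 had a fitted peak between ZT 0 and 6, 3 between ZT 6 and 12, 2 between ZT 12 and 18 and 0 between ZT 18 and 24. Of all rows with such a p under this diet 36.6%, 36.02%, 13.9% and 13.4% fell in these windows, so the share between ZT 12 and 18 was lower than under normal chow over all rows as well. After Kcns3 the smallest p belonged to Kcnip4 at 1.43-fold with a peak at ZT 6.06 and Kcne1l, a single-span accessory subunit, at 1.33-fold peaking at ZT 17.3 (limma, adjusted p = 0.401 and 0.439).

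**Figure D3:**
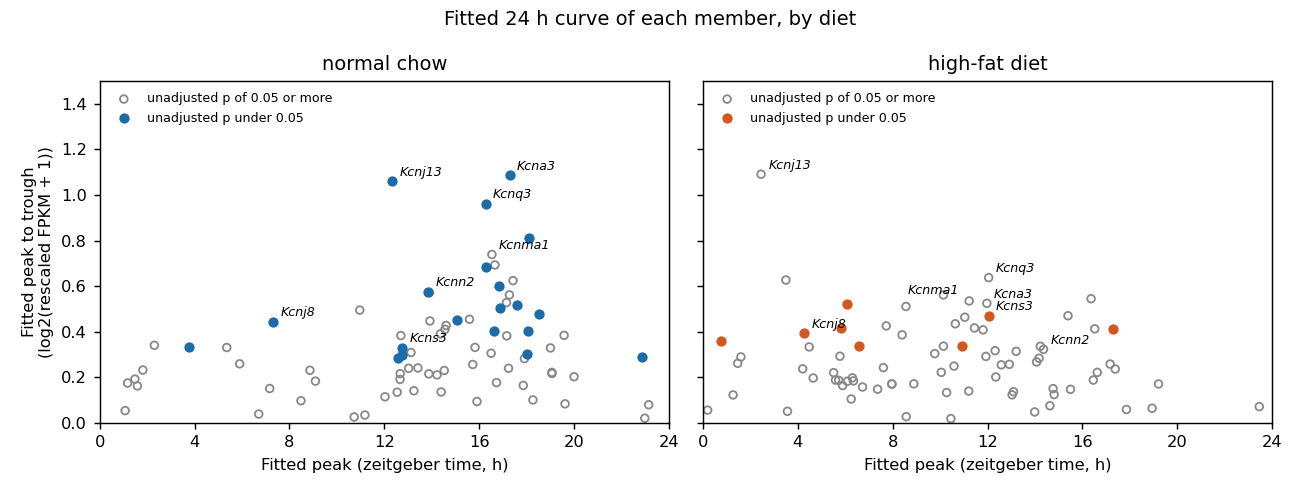
Fitted peak-to-trough value on the log2(rescaled FPKM + 1) scale against the fitted peak in zeitgeber hours, for 78 members under normal chow (left) and 80 under high-fat diet (right). Filled points have an unadjusted p under 0.05, of which 13 of 20 peak between ZT 12 and 18 on the left and 2 of 8 on the right, beside 42.4% and 13.9% of all rows with such a p; open points do not.

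The balance between long and short transcripts differed among libraries and moved with many members. It was measured in each library as the median log2 deviation of 836 rows whose longest annotated transcript has at least 8000 nt minus that of 3381 rows under 2000 nt. The measure was lowest in high-fat diet ZT 20 replicate 3 (-0.72) and normal chow ZT 4 replicate 2 (-0.72), and highest in high-fat diet ZT 8 replicate 2 (0.72). Of the 80 members 17 had their lowest value in that normal chow library and 14 in that ZT 20 library, 21.2% and 17.5% beside 11.2% and 20.6% of all rows tested. Their highest value was in the ZT 8 library for 20 members, 25% beside 36.3% of all rows. The library with the most highest values, 25 members or 31.2% beside 7.80% of all rows, was high-fat diet ZT 16 replicate 3, which also held 11 lowest values. That library had a measure of 0.23, the 31st of 36 from the lowest, and the highest Ppp1r1b. Under normal chow the group medians of the measure were -0.19, -0.21 and -0.08 at ZT 0, 4 and 8 and 0.18, 0.02 and 0.21 at ZT 12, 16 and 20. The medians of ZT 12, 16 and 20 lay above those of ZT 0, 4 and 8, but that of ZT 16 was lower than those of ZT 12 and 20. ZT 16 lies inside the window from ZT 12 to 18 that held 13 of the 20 fitted peaks under normal chow. This is a description, and the cause of those peaks was not tested.

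Kcnma1 followed this measure most closely. Over the 36 libraries its log2(value + 1) had Pearson r = 0.95 and Spearman rho = 0.95 with the measure (permutation p = 1e-05 for each, the smallest that 100000 resamples can give; adjusted p = 4.21e-05 and 4.71e-05 over 80 relations). Without the 2 libraries farthest from the median r was 0.93, and within normal chow and high-fat diet it was 0.96 and 0.95. Kcnma1 stood at 5.76 and 5.15 in the libraries with the lowest measure and at 35.4 in the library with the highest. Its longest annotated transcript has 12094 nt and is among the long rows, as is that of Kcnq3 with 11824 nt (r = 0.92), but the longest annotated transcript of Kcna3 has 1902 nt and r was 0.87. In all, 43 members had a positive r with an adjusted permutation p under 0.05, in both diets for each of the 43, and 0 had a negative one. The smallest r among these 43 was 0.371, and r was at least that in 44 members, 55.0%, beside 42.2% of all rows tested, and at most -0.371 in 0 members beside 11.9% of all rows. A value of r of at least 0.8 was reached by 16 members, 20.0%, beside 11.6% of all rows tested, as a description.

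The 3 rhythm calls over both diets were also made with the length measure in the model. For Kcns3 r with the measure was 0.23 (permutation p = 0.174, adjusted 0.253) and the adjusted p of its rhythm with the measure as a covariate was 0.00569 (limma). For Kcnn2 r was 0.47 (permutation p = 0.00426, adjusted 0.0103) and that adjusted p was 0.0208 (limma). For Kcnj8 r was -0.33 (permutation p = 0.0475, adjusted 0.0826; -0.67 within normal chow) and the adjusted p-values of its rhythm and of its day-night difference with the covariate were 0.0117 and 8.01e-04 (limma). The 20 members of normal chow at an unadjusted p under 0.05 came to 11 with the covariate and to 13 without the 3 libraries at the ends of the measure. Leaving out normal chow ZT 4 replicate 2 alone also gave 13. Leaving out high-fat diet ZT 20 replicate 3, the library with the lowest measure, moved the members at an unadjusted p under 0.05 from 9 to 19 both for the rhythm over both diets and for day against night. The length measure and its settings were chosen after seeing the data.

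**Figure D4:**
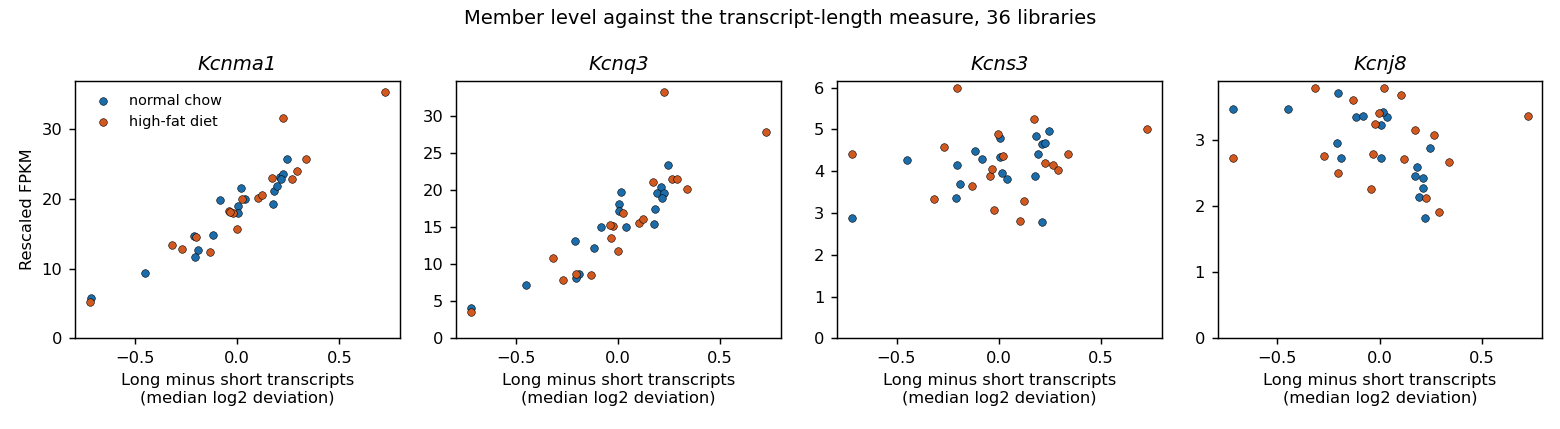
Rescaled FPKM of Kcnma1, Kcnq3, Kcns3 and Kcnj8 in each of the 36 libraries against the transcript-length measure (median log2 deviation of long minus short transcripts), coloured by diet. Kcnma1 runs from 5.15 to 35.4 along the measure, and Kcns3 shows no such line.

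The rhythms of the members were not shown to differ between the diets. The test of the difference called 0 of 80 members (limma), beside 0% of all rows, and 7 of 80 had an unadjusted p under 0.05, 8.75% beside 13.2% of all rows. Kcnj5 had 1.39-fold with a peak at ZT 18.5 under normal chow and 1.13-fold with a peak at ZT 7.96 under high-fat diet (limma, adjusted p of the difference = 0.357). Kcnd3, an A-type channel gene, had 1.32-fold with a peak at ZT 16.6 and 1.34-fold with a peak at ZT 7.73, and Kcnj13 had 2.09-fold with a peak at ZT 12.3 and 2.13-fold with a peak at ZT 2.45. Their adjusted p-values were 0.357 as well (limma).

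Diet over all time points called 0 of 80 members (limma), beside 0.0132% of all rows, and 0 of 80 had an unadjusted p under 0.05 beside 2.56% of all rows. The differences, high-fat diet minus normal chow, ran from -0.12 to 0.29 on the log2(value + 1) scale with a median of 0.01, and 43 of 80 were positive. Kcnn4, the intermediate-conductance calcium-activated channel, had the smallest p, with medians of 1.26 and 1.06 under high-fat diet and normal chow at ZT 0 and of 0.843 and 0.636 at ZT 16, and a difference of 0.13 ± 0.073 over the day (limma, adjusted p = 1). Kcnn4 was under the minimum level in normal chow and is a member only through its high-fat diet libraries. The level rule thus favoured this direction for Kcnn4. Kcnj13 had 0.29 ± 0.24 and Kcnn1, a small-conductance channel gene, -0.04 ± 0.037. The 46 other excitability genes also gave 0 calls for diet (limma), with 0 at an unadjusted p under 0.05.

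Time point by time point, diet called 0 of 80 members at each of the 6 hours (limma), where 0% of all rows were called at ZT 0, 4, 8, 16 and 20 and 0.00659% at ZT 12. At an unadjusted p under 0.05 the members numbered 2, 0, 1, 0, 10 and 3 at ZT 0, 4, 8, 12, 16 and 20, beside 3.9%, 1.5%, 16.1%, 0.975%, 10.7% and 3.99% of all rows. The 10 members of ZT 16 are 12.5% of the 80. They included 3 calcium-sensing subunits of A-type channels, Kcnip1, Kcnip3 and Kcnip4, which did not share a direction.

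Kcnip1 had the smallest p at ZT 16. Its values were 64.9, 77.7 and 84.6 under normal chow and 40.8, 57.4 and 68.1 under high-fat diet, and the groups overlapped. The difference was -0.47 ± 0.13 on the log2(value + 1) scale (limma, adjusted p = 0.285), and it was -0.27 without high-fat diet replicate 3, the library with the highest Ppp1r1b. Kcnip4 had -0.49 and Kcnj5 -0.52, while Kcnip3 had 0.40 (limma, adjusted p from 0.285 to 0.312). The smallest p at the other hours belonged to Kcnj13 at ZT 0 and ZT 4, Kcns1 at ZT 8 (-0.40 ± 0.18), Kcnt1 at ZT 12 (-0.47 ± 0.25) and Kcns2 at ZT 20 (-0.48 ± 0.20), with adjusted p-values from 0.289 to 1 (limma). Kcnt1 had -0.22 without high-fat diet ZT 12 replicate 1, and Kcns2 had -0.30 without high-fat diet ZT 20 replicate 3.

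Kcnh3, Kcnj4 and Kcnj13 had the widest ranges of all members, and their levels moved with markers of tissue around the SCN. Kcnh3, a voltage-gated channel of forebrain neurons, had a lowest value of 1.04, a median of 4.94 and a highest of 71.6. Kcnj4, an inward rectifier of striatal and cortical neurons, had 2.52, 8.62 and 109. For both genes the highest libraries were high-fat diet ZT 16 replicate 3 and normal chow ZT 12 replicate 3, the same libraries that stood apart in Ppp1r1b. The 13 listed markers of striatum, cortex and thalamus summed to between 123 and 1865 over the libraries, and Neurod6 was the only one of them listed at 0, in 2 libraries. The mean log2(value + 1) of these markers had r = 0.89 and rho = 0.87 with Kcnh3 and r = 0.91 and rho = 0.87 with Kcnj4 (permutation p = 1e-05 each, adjusted 2.1e-04 over 84 relations). Without the 2 farthest libraries r was 0.84 for each, and within normal chow and high-fat diet it was 0.89 and 0.91 for Kcnh3 and 0.93 and 0.91 for Kcnj4. With the SCN markers r was -0.33 and -0.25 (adjusted permutation p = 0.150 and 0.370).

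Kcnj13 is best known from the choroid plexus and the retinal pigment epithelium. Its values ran from 0.101 through a median of 1.05 to 8.83, the highest in high-fat diet ZT 0 replicate 3. Its r was 0.95 and rho 0.92 with the 6 markers of meninges and fibroblasts (permutation p = 1e-05 each, adjusted 2.1e-04), 0.92 without the 2 farthest libraries, and 0.92 and 0.96 within normal chow and high-fat diet. With the choroid plexus markers r was 0.13 (adjusted permutation p = 0.802). At ZT 0 its values were 0.643, 1.09 and 1.43 under normal chow and 2.12, 4.58 and 8.83 under high-fat diet, which did not overlap, with a difference of 1.45 ± 0.52 on the log2(value + 1) scale (limma, adjusted p = 0.927). The meningeal markers summed to between 42.1 and 63.3 in those normal chow libraries and between 82.0 and 220 in those high-fat diet libraries. Of the 6 markers, none at 0 in any library, 6 had an unadjusted p under 0.05 for a difference in rhythm between the diets (limma), as Kcnj13 had. The part of meningeal tissue in the values of Kcnj13 was not tested.

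**Figure D5:**
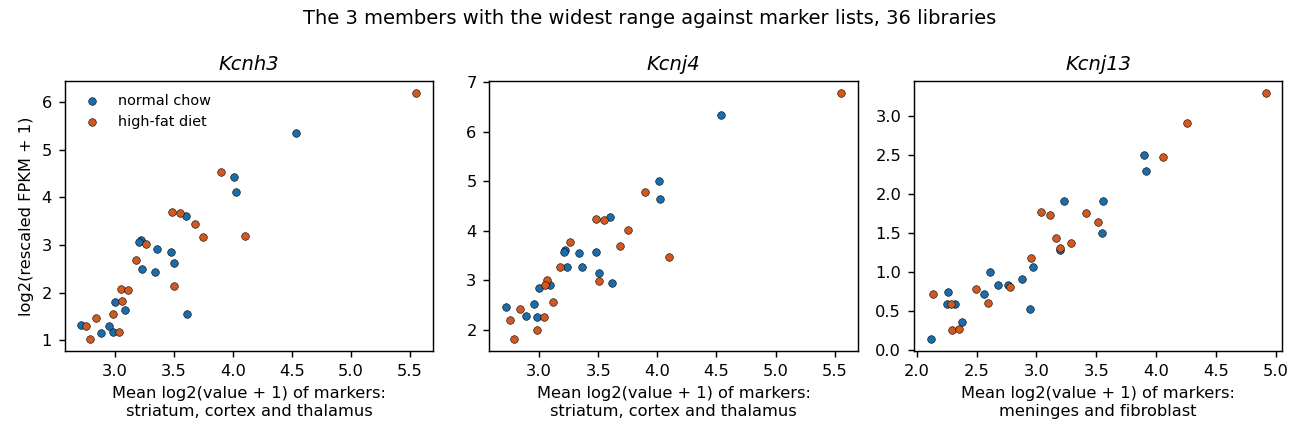
log2(rescaled FPKM + 1) of Kcnh3, Kcnj4 and Kcnj13 in each of the 36 libraries against the mean log2(value + 1) of a marker list, coloured by diet. All 3 lie along a line (r = 0.89, 0.91 and 0.95), and the 2 points at the right of the Kcnh3 and Kcnj4 plots are the libraries with the highest Ppp1r1b.

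Promoter windows were read for the members because the clock acts on its targets through short DNA elements. RefSeq windows on GRCm38.p6, from 250 bases before to 50 after a transcription start, were found for 57 of 80 members, with 80 windows in all. The E-box CACGTG, bound by CLOCK and BMAL1, was present on either strand in 7.5% of the members' windows and in 7.15% of all 32851 windows. CACGTT, an E-box variant, was in 1.25% and 4.68%, the D-box TTANGNAA in 8.75% and 11.5%, and AGGTCA, the core that REV-ERB and ROR receptors bind, in 6.25% and 16.3%. None of these 4 motifs was in the window of Kcnj8 or in either window of Kcns3. Kcnn2 was not among the members with a match to these 4 motifs, and whether it had a window is not given here. A match is a run of letters and not a shown binding site.

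The E-boxes of the members are shown with 8 bases on each side, the motif in capitals, because they are the members that carry the clock's own element next to a start. They belong to 5 members, Kcnab1 with starts at 2 places, and none of these members had a called rhythm (limma, adjusted p from 0.347 to 0.803 over both diets). The windows are chr3:65108844-65108865 and chr3:65188050-65188071 for Kcnab1, chr1:78816849-78816870 for Kcne4, chr11:100759852-100759873 (minus strand) for Kcnh4, chr11:111066072-111066093 for Kcnj2 and chr7:24370122-24370143 for Kcnn4.
Kcnab1, upstream start: agagcattCACGTGttaatcag
Kcnab1, downstream start: ttacaaagCACGTGcctctagt
Kcne4: tcccggaaCACGTGacgatgca
Kcnh4: tgcggagcCACGTGgtgggcgc
Kcnj2: agcgcagcCACGTGcgctccga
Kcnn4: tctttgccCACGTGgatgaact
The smallest adjusted p among the 5 was that of Kcnn4, whose fitted curve was 1.21-fold with a peak at ZT 2.75.

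The 250 bases before the start of Kcnj8 (RefSeq, GRCm38.p6, chr6:142571615-142571864, minus strand) are shown because it was the 1 member called both for its rhythm and for day against night. Capitals mark TGACG on the opposite strand, the core of a cAMP response element, searched for after the sequence had been read and present on either strand in 17.5% of the members' windows and 20.8% of all windows.
Kcnj8: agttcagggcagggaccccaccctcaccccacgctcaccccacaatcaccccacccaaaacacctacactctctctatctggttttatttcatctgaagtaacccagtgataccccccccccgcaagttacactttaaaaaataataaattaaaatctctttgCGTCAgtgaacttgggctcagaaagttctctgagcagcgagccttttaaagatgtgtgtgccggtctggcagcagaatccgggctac
This core stands near the start, in a stretch of 49.2% G and C. Kcns3, the member with the smallest p for a rhythm over both diets, has 2 RefSeq starts. The 250 bases before the downstream one (chr12:11150374-11150623, minus strand) are shown, since they hold no base of its annotated exons, and those before the upstream one, with 105 such bases, are not. They are 72.8% G and C, and no motif is in capitals because none of those searched was in them.
Kcns3, downstream start: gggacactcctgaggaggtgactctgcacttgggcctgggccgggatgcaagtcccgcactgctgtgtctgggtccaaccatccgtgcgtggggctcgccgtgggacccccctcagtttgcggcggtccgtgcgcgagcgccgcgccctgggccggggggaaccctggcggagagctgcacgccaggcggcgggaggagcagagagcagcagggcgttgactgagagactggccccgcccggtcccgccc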

How the data were processed

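Per the labels' protocols, the SCN-enriched region was snap frozen and its total RNA (RNeasy Micro Kit) went into TruSeq stranded mRNA libraries. Trimmomatic, TopHat and Cufflinks with builds mm10 and GRCm38 are named per the submitters' processing notes, with versions and options not given in the sources used here. The deposited values were read as FPKM because of their range and because Cufflinks is named; the file headers give no unit. Each diet has its own table, so how a table was made and diet cannot be told apart.

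Here each library was rescaled to sum to 1000000 (the FPKM sums were 302900 to 432300), and log2(value + 1) of rows whose mean in the fitted libraries was at least 1 was tested with limma 3.58.1 in R 4.3.3, with a mean-variance trend and Benjamini-Hochberg adjustment over all rows tested at 0.05. Rhythms were cosine curves of 24 h. The scripts were tested on simulated data. Replicate libraries were compared, and no pair was identical. The depth in reads is unknown, so no counting interval is given. Correlations used 100000 permutations (numpy 2.4.6). Gene positions and transcript lengths came from GENCODE M21, and all 80 members were matched.

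Named were the members that passed a test, the 3 members with the smallest p in each test (1 for diet at each time point), the highest member of each subfamily, a list of channels studied in SCN firing, the rows beside the minimum level and the 3 members with the widest range. Kcnip3, Kcna3 and the E-box members were named after their values were seen, and so were other members that a count or a range singles out. The values of 1 member that these rules name are not reported here. The members, the lists and these rules were chosen with earlier results of these data known. Alternatives were median-of-ratios size factors, no rescaling, a pseudocount of 0.1, no filter, a replicate block, marker scores or the length measure as covariates, any difference among time points, a wider day and night, and libraries left out.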

Additional observations from a re-analysis of the deposited data

How the results depend on the processing

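The 3 rhythm calls over both diets (Kcns3, Kcnn2 and Kcnj8) and the day-night call of Kcnj8 were also made in all 36 fits that left out 1 library each, with a highest adjusted p of 0.0131, 0.0237 and 0.0306 for the rhythms and 0.00306 for the day-night difference (limma). Of 510 values of single genes under the other settings 504 kept their direction and their side of the threshold, 3 lost a call and 3 gained one. They came from 44 results not called as reported, which could not lose a call, and 4 called ones. Peak-to-trough values are never negative, so these could not change direction. The 3 losses were the rhythm of Kcnj8 with marker scores and those of Kcnj8 and Kcnn2 when any difference among time points was tested. Calls among the members over both diets came to 1 (Kcns3) when any difference among time points was tested and to 2 (Kcnn2 and Kcns3) with marker scores. With median-of-ratios size factors they came to 4, which added Kcna5 (limma, adjusted p = 0.0752 as reported). Under normal chow they came to 1 with median-of-ratios size factors, 1 without rescaling (67 members tested) and 1 with marker scores, Kcnn2 in each case. The causes of these changes were not tested. Of 44 values of single genes that were not called, 18 moved by over 1.5 times and 0 changed sign when 1 library was left out, against 0 of the 4 called values.

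At an unadjusted p under 0.05 the members under normal chow numbered 11 (any difference), 11 (length covariate) and 13 (without the 3 libraries at the ends of the length measure), under high-fat diet 4 (any difference), over both diets 21 and for the difference between diets 4 (both without those 3 libraries), and for day against night 5 with marker scores and 16 without those 3 libraries. Calls among all rows under normal chow were 260 (median-of-ratios), 42 (marker scores), 50 (any difference), 204 (without the 3 libraries highest in Alb), 67 (length covariate) and 72 (without the 3 libraries at its ends). Under high-fat diet they were 5 (no filter), 7 (replicate block), 36 (marker scores) and 2 (any difference). Over both diets they were 629 (length covariate) and 618 (without the 3 libraries at its ends). For day against night they were 93 (wider day and night) and 724 (length covariate), and for diet at each time point 0 without rescaling and with marker scores, and 2 with no filter, without the 3 libraries highest in Alb and without the 3 at the ends of the length measure. The causes were not tested.

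With 1 library left out, the members called ranged from 0 to 1 under normal chow (1 without ZT 0 replicate 3 or ZT 12 replicate 2) and from 3 to 4 over both diets. The members at an unadjusted p under 0.05 ranged from 13 to 25 under normal chow, 7 to 12 under high-fat diet, 8 to 19 over both diets, 4 to 13 for the difference (4 without normal chow ZT 16 replicate 2, high-fat diet ZT 4 replicate 2 or ZT 16 replicate 1, 11 without normal chow ZT 4 replicate 1, 13 without high-fat diet ZT 20 replicate 2), 4 to 19 for day against night (4 without normal chow ZT 8 replicate 2 or high-fat diet ZT 4 replicate 3, 14 without replicate 1 of ZT 4 in either diet), 11 to 33 for diet over the 6 time points (33 without high-fat diet ZT 20 replicate 2) and 0 to 1 for diet overall. Over both diets the count was 15 without normal chow ZT 12 replicate 1. Calls among all rows ranged from 48 to 162, 4 to 13, 265 to 451, 180 to 335 (day against night), 0 to 1100 (diet by time point, the latter without high-fat diet ZT 8 replicate 1) and 2 to 3 (diet overall).

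The labels do not tie the replicate numbers to a shared animal, day or batch, and the libraries were not treated as paired: deviations from group means had a median correlation of 0.03 between libraries of the same number and -0.02 between others, and of 0.10 (from -0.28 to 0.32) between the diets at the same number and time point. Of 36 libraries 21 correlated best with their own number, a hint of pairing from the data and not from the design. With the replicate block the members called over both diets were 3.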
